A study of Homo sapiens with 24 samples.

Results

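The introns described here are the very long ones of HCT116 cells, those that span 50000 bases or more between their splice sites. An intron was taken when it was listed as a spliced junction on chromosomes 1 to 22 or X, when its junction made up a mean of at least 50% of the usage at both of its ends over the 12 DMSO samples, and when both ends had reads in all 24 samples. Of 9497 listed introns of that length, 4300 had reads at both ends in every sample and 1169 also met the usage limit. They lie in 856 named genes, and they are the longest of 90109 introns of 100 bases or more that met the other limits. The introns were thus chosen by their spliced usage in the 12 DMSO samples. The usage of their own junctions in DMSO is therefore a description and was not tested. Retention in DMSO at the same sites was tested, and the choice limits how high it could be. The level of retention under E7107 was not used in the choice. Unspliced reads did count among the reads that both ends needed in all 24 samples, those with E7107 included.

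HCT116 is an established human colorectal cancer line. The cells carried a lentiviral cDNA of PHF5A, a subunit of the SF3b complex, either wild type (WT) or with the Y36C substitution. They were blasticidin-selected populations that still held their own PHF5A gene, so that the comparison is between cells with an added WT and an added Y36C protein. Both kinds of cell received either DMSO, the solvent control, or E7107, a splicing modulator of the pladienolide family that targets SF3b, for 6 h. Each of the 4 groups held 6 samples. The labels give no dose of E7107, and the methods name more than 1. Nothing in the labels says that the samples of a group came from separate cultures begun on different days, so that p-values measure the spread between these samples, which may be technical.

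An intron is removed after the spliceosome has recognised a 5′ splice site, where U1 snRNP pairs at the start of the intron, and a 3′ splice site, where the U2 auxiliary factor reads the pyrimidine tract and the AG and where U2 snRNP, with its SF3b complex, binds the branch point adenosine. In very long introns these ends are far apart, exons are thought to be recognised as units before the ends are joined, and a transcribing polymerase reaches the 3′ end long after the 5′ end. Long introns are common as the first intron of large genes and can hold exons that are rarely used. Reads that run from an exon into the intron at either end show RNA in which that end has not been spliced.

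The measured quantity was the percent spliced in (PSI), which is the share of all usage at a splice site, in percent, taken by 1 junction. Retention at the 5′ boundary is the share of usage at the 5′ splice site taken by reads that cross unspliced from the exon into the intron, and retention at the 3′ boundary is the same at the 3′ splice site. The 5′ boundary was listed for 1104 of the 1169 introns, the 3′ boundary for 1051, and both for 1003. Because PSI is a share of usage at a site, a rise in retention is a change in proportion and says nothing about how much RNA of the gene was made or how many cells made it, and in bulk RNA fewer cells and less RNA per cell cannot be told apart.

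The splice sites of 9 introns show what was read at the ends. The first 4 introns are among those with the largest rise of retention at both ends in WT cells under E7107, the next 2 rose mainly at the 5′ boundary, and the last 3 had retention of 0 at both ends in all 12 WT samples. A 5′ splice site is given as 3 exon bases and 6 intron bases with the GT in capitals, and a 3′ splice site as 20 intron bases and 3 exon bases with the AG in capitals, both in the direction of transcription and read from GRCh37.
CDK6, intron 2, chr7:92404146-92462404, minus strand, 5′ splice site: cagGTgagc
CDK6, intron 2, 3′ splice site: ctctttgttttttcttctAGgtt
IRS1, intron 1, chr2:227600967-227659704, minus strand, 5′ splice site: cagGTgcgt
IRS1, intron 1, 3′ splice site: tctttcctttttcttttcAGaat
E2F3, intron 1, chr6:20404064-20480076, plus strand, 5′ splice site: cagGTtagt
E2F3, intron 1, 3′ splice site: atcgcactttcttattacAGgca
SKI, intron 1, chr1:2161175-2234416, plus strand, 5′ splice site: cggGTgagt
SKI, intron 1, 3′ splice site: aaacctttcattgatcgcAGgtc
APBB2, chr4:41145160-41216421, minus strand, 5′ splice site: ctgGTgagc
APBB2, 3′ splice site: tctggcctttgcccccccAGgtt
EGFR, intron 1, chr7:55087059-55209978, plus strand, 5′ splice site: aagGTaagg
EGFR, intron 1, 3′ splice site: tatctgtctttttcttccAGttt
DERA, chr12:16135371-16185475, plus strand, 5′ splice site: cagGTaagt
DERA, 3′ splice site: ttttcctctttttgttttAGgat
PCCA, chr13:101101560-101167680, plus strand, 5′ splice site: gtgGTaagt
PCCA, 3′ splice site: ggttttgtttttcccttaAGtac
MGLL, chr3:127441410-127500631, minus strand, 5′ splice site: atgGTgagt
MGLL, 3′ splice site: catctcccgttcctttccAGttg

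The introns ran from 50056 to 523672 bases, with a median of 72986. Of the 1161 that match an annotated intron, 485 (41.8%) were the first intron of their transcript and 205 were the second, while first introns made up 5.17% of introns of 100 to 1000 bases, 8.28% of those of 1000 to 10000 bases and 27.6% of those of 10000 to 50000 bases. By place in the gene, 950 lay between coding exons, 186 in a 5′ UTR, 6 in a 3′ UTR and 19 in noncoding transcripts. The splice sites were GT-AG in 1163 introns, GC-AG in 5 and AT-AC in 1. The intron began with GTAAGT in 18.99% and with GTGAGT in 19.2%, compared with 10.5% and 14.8% of introns of 100 to 1000 bases. The shares were 16.2% and 12.6% at 1000 to 10000 bases and 18.5% and 15.1% at 10000 to 50000 bases, so that GTAAGT was near as common there. The 20 bases ahead of the base that precedes the AG had a median of 80% pyrimidines against 75% in each shorter class. The AG followed a C in 64.5%. These letters were read only on the strand of the gene. The median GC content was 40.05% in the intron and 46.4% in the exon downstream. No pair of the introns shared a splice site, but 199 genes held more than 1 of them, up to 6 in a gene.

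In WT cells, E7107 raised retention of very long introns at the 5′ boundary more than at the 3′ boundary. The mean over the 1104 listed 5′ boundaries was 1.94% in DMSO and 11.98% under E7107, and the mean over the 1051 listed 3′ boundaries was 1.47% and 5.31%. With boundaries that were not listed set to 0, so that all 1169 introns count, the 5′ mean over the samples was 1.83% ± 0.118 (SD, n = 6) in DMSO and 11.3% ± 0.773 under E7107. Single samples lay between 1.63% and 1.97% in DMSO and between 10.3% and 12.4% under E7107, so that the groups did not overlap. At the 3′ boundary the means were 1.32% ± 0.0841 and 4.78% ± 0.731, and again the groups did not overlap, the lowest E7107 sample being at 3.60%.

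**Figure D1:**
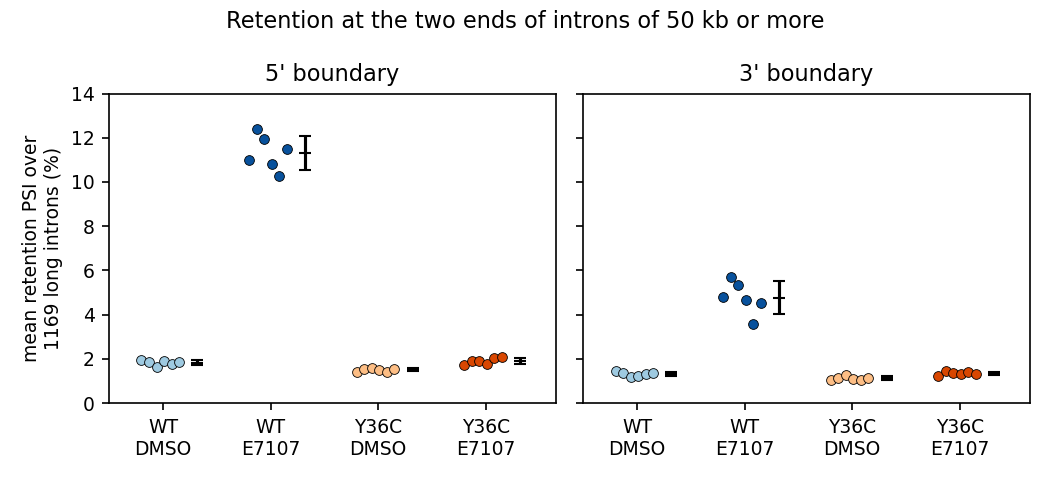
Mean retention in percent over the 1169 very long introns in each of the 24 samples, at the 5′ and at the 3′ boundary, with unlisted boundaries as 0; points are samples and lines mark the group mean with its SD. The 6 WT E7107 samples lie between 10.3% and 12.4% at the 5′ boundary and between 3.60% and 5.70% at the 3′ boundary, above all samples of the other 3 groups.

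The rise was uneven over the introns. Under E7107 in WT cells, 364 5′ boundaries (33.0%) had a mean retention of 10% or more, 200 reached 20% and 59 reached 50%, compared with 39, 12 and 0 in WT DMSO. At the 3′ boundary 164 (15.6%) reached 10%, 72 reached 20% and 6 reached 50%, compared with 16, 6 and 0. The choice of introns held mean retention over the 12 DMSO samples at 50% or less. The 0 at 50% in DMSO thus follows largely from the choice and carries no weight. At the other extreme, 150 of the 5′ and 260 of the 3′ boundaries had no retention in any WT E7107 sample. The median 5′ boundary went from 0.748% to 4.84% and the median 3′ boundary from 0.617% to 2.11%.

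With limma on the log odds of PSI over all rows of the files, and with a row tested only if all 6 samples of some group had a PSI above 0, 219 of 255 tested 5′ boundaries and 101 of 149 tested 3′ boundaries rose in WT cells. No 5′ boundary and 7 of the 3′ boundaries fell. Over all boundaries in the files, 70.8% of those tested rose and 5.78% fell. This filter passed 194 of the 5′ and 84 of the 3′ boundaries only through the E7107 group, where they are high, so that these had to differ and the counts are given without weight. Without the filter, which brings in every boundary with a value that varied, 324 of 1050 5′ boundaries (30.9%) and 144 of 957 3′ boundaries (15.05%) rose, against 43.0% of all boundaries in the files, and 2 and 16 fell. The shares called at the 5′ boundary were 50.8%, 42.5% and 33.4% in introns of 100 to 1000, 1000 to 10000 and 10000 to 50000 bases, and at the 3′ boundary they were 50.7%, 40.5% and 27.8%. Fewer very long introns were thus called than the background at both ends, and the share was lowest at the 3′ end.

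**Figure D2:**
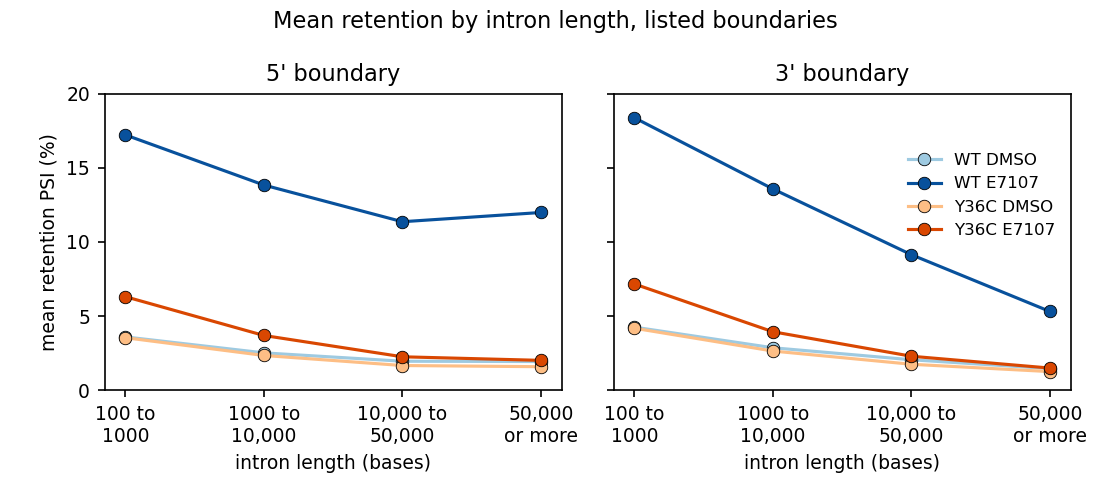
Retention in percent by intron length class (100 to 1000, 1000 to 10000, 10000 to 50000 and 50000 bases or more) at the 5′ and the 3′ boundary, in the 4 groups. In WT E7107 the mean falls with length at the 3′ boundary from 18.4% to 5.31%, whereas the 5′ boundary goes from 17.2% to 11.4% in the class of 10000 to 50000 bases and stands at 11.98% in the longest.

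Retention at the 5′ boundary was above that at the 3′ boundary in 620 of the 1003 introns with both listed and below it in 321 in WT E7107, with a mean difference of 6.55 percentage points. It exceeded the 3′ boundary by more than 10 points in 230 introns and fell short by more than 10 points in 58. In WT DMSO the counts were 485 above and 425 below, and in the class of 1000 to 10000 bases under E7107 they were 20469 above and 22913 below. The difference of the ends was tested in its own limma fit over 86152 introns with both boundaries listed, 995 of them very long. In WT cells the 5′ boundary rose more than the 3′ boundary in 98 very long introns (9.85%) and less in 13 (1.31%), against 1.89% and 0.714% of all introns tested. The shares with a larger 5′ rise were 0.928%, 1.94% and 4.86% in the shorter classes in order of length. In Y36C cells no very long intron passed that test, 75 of 960 had an unadjusted p under 0.05, and the smallest adjusted p was 0.0915. Few introns of any length passed it there. In the shorter classes in order of length the 5′ boundary rose more in 0.0156%, 0.0181% and 0.0431%. It rose less in 0.00937%, 0.00905% and 0.0144%. Between the genotypes under E7107, the 5′ excess was smaller in Y36C in 98 of 991 introns (9.89%) and larger in 12 (1.21%), against 1.72% and 0.814% of all 86018 introns tested. The shares with a smaller excess were 0.797%, 1.71% and 4.86% in the shorter classes in order of length.

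**Figure D3:**
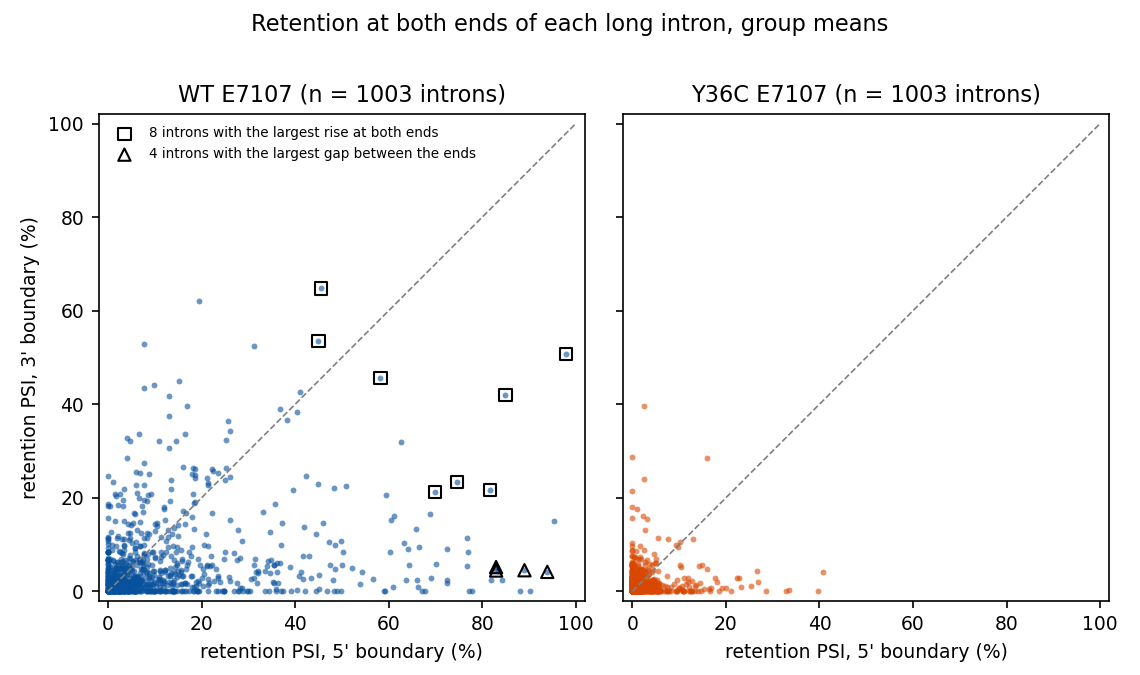
Mean retention in percent at the 5′ boundary (x axis) and the 3′ boundary (y axis) of the 1003 introns with both listed, as 1 point an intron, in WT E7107 (left) and Y36C E7107 (right); the dashed line marks equal values, squares mark the 8 introns with the largest rise at both ends and triangles the 4 with the largest difference of the ends. In WT E7107, 620 introns lie on the 5′ side of the line and 321 on the 3′ side, and in Y36C E7107 the numbers are 435 and 444.

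CDK6, a cyclin-dependent kinase that drives entry into S phase, had the largest mean rise among introns called at both ends. Retention at the 5′ boundary of its intron 2 was between 0% and 3.70% (median 0%) in WT DMSO and between 80.5% and 91.2% (median 84.6%) in WT E7107, with means of 0.932% ± 1.55 (SD, n = 6) and 84.96% ± 3.87. At the 3′ boundary it was 0% in all WT DMSO samples and between 21.1% and 60% (median 43.5%) under E7107. The groups did not overlap at either end, and the rise was 5.88 ± 0.304 (SE) in natural-log odds at the 5′ boundary (limma, adjusted p = 6.48e-09, and 1.80e-08 in the fit without the filter) and 4.27 ± 0.260 at the 3′ boundary (adjusted p = 2.50e-08, and 6.47e-08 without it). In Y36C cells the same 5′ boundary had a mean of 0.728% in DMSO and 0% in all 6 E7107 samples.

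IRS1, an adaptor of the insulin receptor, has its only intron in the 3′ UTR, and it had the highest 5′ retention in WT DMSO of the 8 introns with the largest rise. Its 5′ retention was between 26.2% and 36.4% (median 31.8%) in WT DMSO and between 97.1% and 98.9% (median 97.9%) in WT E7107, and the samples of the groups were far apart (4.27 ± 0.149 in natural-log odds, limma, adjusted p = 3.78e-10, and 4.77e-10 without the filter). Its 3′ retention was between 3.85% and 10.7% (median 5.99%) and between 28.6% and 76.9% (median 46.4%). In Y36C cells the 5′ mean was 31.8% ± 6.00 in DMSO and 26.9% ± 4.41 under E7107, a difference that did not pass the test (adjusted p = 0.350).

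E2F3, a transcription factor of the cell cycle, and SKI, a repressor of TGF-β signalling, rose more at the 3′ than at the 5′ boundary in percentage points. In intron 1 of E2F3 the 3′ retention was between 0% and 6.94% (median 1.14%) in WT DMSO and between 44.4% and 81.0% (median 67.0%) in WT E7107. The 5′ retention of E2F3 was between 0% and 13.6% (median 5.73%) and between 20% and 73.7% (median 39.7%). In intron 1 of SKI the 3′ retention went from between 4.05% and 13.7% (median 7.02%) to between 38.7% and 69.0% (median 52.5%), and the 5′ mean from 0.709% ± 1.16 to 44.98% ± 8.81. None of these 4 pairs of groups overlapped, and all 4 rises passed the test with the filter and without it. In natural-log odds the 5′ rise less the 3′ rise was -1.74 in E2F3 and 1.48 in SKI, so that on this scale the 5′ end rose more in SKI, and the difference of the ends passed the test in neither (adjusted p = 0.244 and 0.0947).

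The other 4 introns with the largest rise were called at both ends as well, with the filter and without it. They lie in KANSL1, a subunit of a histone acetyltransferase complex, in FBXW7, the substrate receptor of a ubiquitin ligase, in CMIP, and in MBNL2, a regulator of alternative splicing. The 5′ mean in WT E7107 was 81.7% ± 3.12 in KANSL1, 74.5% ± 14.99 in CMIP, 69.9% ± 8.44 in MBNL2 and 58.2% ± 16.0 in FBXW7, and the 3′ mean was 21.7% ± 10.5, 23.3% ± 10.99, 21.2% ± 12.6 and 45.6% ± 19.6. The 5′ boundary rose more than the 3′ boundary in KANSL1 (adjusted p = 0.000924), CMIP (0.00125) and MBNL2 (0.00102) by limma, and in FBXW7 the difference of the ends was 0.00539 in natural-log odds (adjusted p = 0.999). An annotated exon of another transcript of the same strand lies across the 5′ boundary in KANSL1 and FBXW7, and its part in the retention there was not tested.

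APBB2, which encodes a protein that binds the amyloid precursor protein, EGFR, the receptor of epidermal growth factor, and ASAP1 and DOCK5, regulators of small GTPases, had the largest difference of the ends. In APBB2 the 5′ retention was between 0% and 1.85% (median 0%) in WT DMSO and between 86.3% and 91.4% (median 88.9%) in WT E7107, while the 3′ retention was between 0% and 12.5% (median 3.12%) under E7107. In the 122920-base intron 1 of EGFR the 5′ retention was between 2.41% and 13.4% (median 6.60%) in WT DMSO and between 91.1% and 97.9% (median 94.1%) in WT E7107. The 3′ retention of EGFR was 0% in most WT E7107 samples and reached 25% in 1. In Y36C cells the 5′ mean of EGFR was 13.4% ± 4.96 in DMSO and 12.8% ± 7.15 under E7107. The 5′ means in WT E7107 were 83.0% ± 7.05 in ASAP1 and 83.0% ± 4.46 in DOCK5, and their 3′ means were 5.19% and 4.46%.

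**Figure D4:**
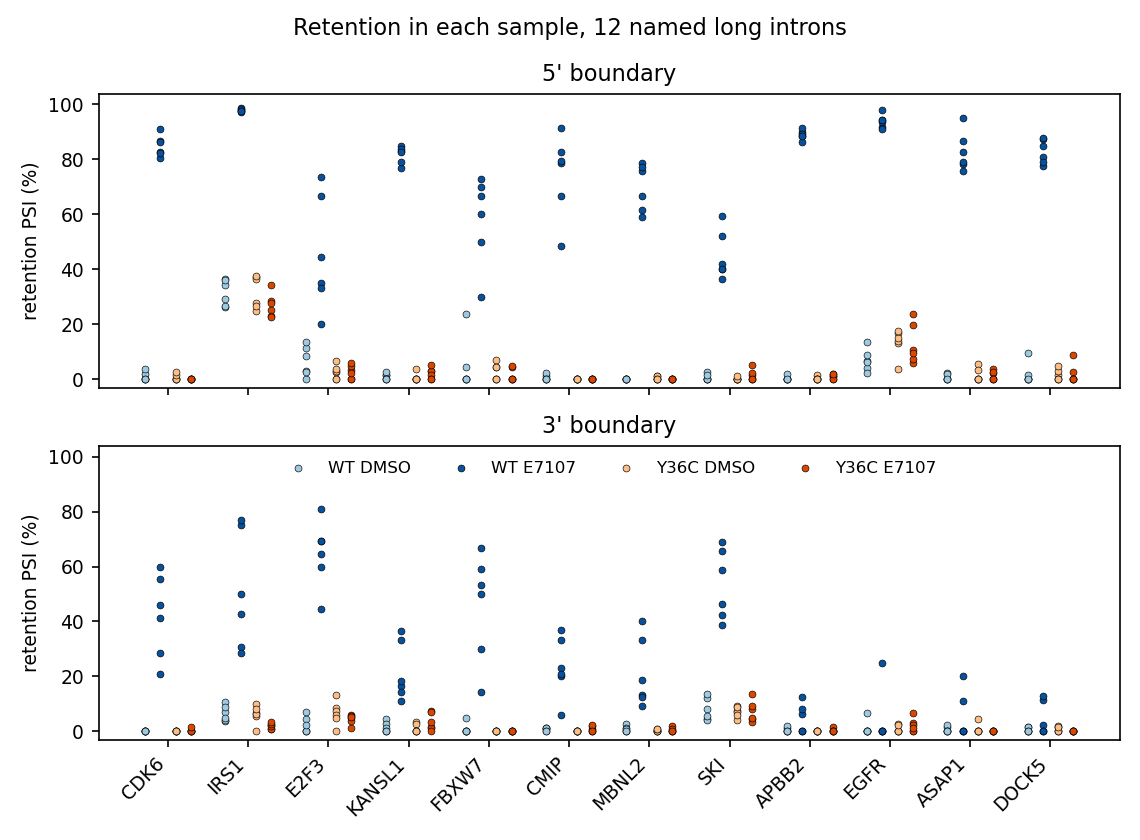
Retention in percent at the 5′ boundary (one panel) and the 3′ boundary (the other) of 12 introns, the 8 with the largest rise at both ends and the 4 with the largest difference of the ends, with each of the 24 samples as a point coloured by group. Under E7107 the WT points of CDK6 lie between 80.5% and 91.2% at the 5′ boundary and between 21.1% and 60% at the 3′ boundary, and those of EGFR between 91.1% and 97.9% and between 0% and 25%.

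Some very long introns showed no retention in any WT sample. DERA, which encodes an aldolase of deoxyribose phosphate, PCCA, a subunit of propionyl-CoA carboxylase, MGLL, a monoglyceride lipase, GRB14, an adaptor of receptor tyrosine kinases, THSD4, and the FHIT intron at chr3:59908141-59997096 were at 0% at both ends in all 12 WT samples. DERA, PCCA, MGLL and the FHIT intron carry GTAAGT or GTGAGT at the 5′ splice site, and THSD4 and GRB14 carry neither. Among the introns with the largest rise, SKI, KANSL1, FBXW7 and CMIP carry GTGAGT, and CDK6, IRS1, E2F3 and MBNL2 carry neither. The files hold no read numbers, so that the smallest retention these sites could have shown is unknown.

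The length of the intron and its place in the gene went with different changes at the ends. From introns of 50000 to 75000 bases through 75000 to 100000 and 100000 to 150000 to those of 150000 bases or more, the mean 5′ rise in WT cells was 9.39, 9.81, 11.05 and 13.1 percentage points over 583, 252, 186 and 83 listed boundaries, and the mean 3′ rise was 4.42, 3.78, 2.94 and 1.98 points. Ranked over single introns the relation with length was weak, with Spearman's rho of 0.0817 at the 5′ boundary (n = 1104) and -0.0519 at the 3′ boundary (n = 1051). The mean 5′ rise was 12.7 points in first introns, 11.7 in second introns and 6.62 in later ones, and the mean 3′ rise was 5.33, 4.55 and 1.96. Between coding exons and in the 5′ UTR the mean 5′ rise was 10.2 and 8.60 points, and the mean 3′ rise was 3.64 and 4.59 points. Over 3 groups of near equal size from low to high intron GC content the 5′ rise was 8.70, 11.4 and 9.99 points and the 3′ rise 3.26, 4.09 and 4.17 points. The changes at the ends of the same intron had a rho of 0.341 in WT cells and 0.0307 in Y36C cells over 1003 introns. These values share the libraries, and introns of 1 gene share their transcripts.

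The longest introns of the set are in IMMP2L, a mitochondrial inner membrane peptidase, FHIT, a gene of the FRA3B fragile site, MAGI1, a scaffold of tight junctions, and RAD51B, a gene of homologous recombination. In MAGI1, with 415907 bases, the 5′ retention was between 0% and 7.50% (median 4.54%) in WT DMSO and between 23.1% and 52.0% (median 36.02%) in WT E7107, and in RAD51B, with 404679 bases, between 0% and 9.09% (median 0%) and between 16.7% and 70.0% (median 26.5%). In both genes the groups did not overlap. The 3′ retention of RAD51B was 0% in all WT E7107 samples. In IMMP2L, with 523672 bases, the 5′ mean went from 0% to 11.9%, and in FHIT, with 522714 bases, from 2.78% to 3.18%. An annotated exon of the same strand lies across the 5′ boundary in IMMP2L, FHIT and RAD51B and across the 3′ boundary in MAGI1, and its part in these values was not tested.

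Such overlaps were not common. At 914 of the 5′ boundaries no annotated exon of another transcript lay across the boundary, and there the mean went from 1.56% in WT DMSO to 11.3% in WT E7107. At the 167 with an exon of the same strand across, it went from 3.61% to 14.6%, and at the 25 with an exon of the other strand from 5.82% to 19.1%. At the 3′ boundary 939 had none, with means of 1.26% and 4.92%. Strandedness of the counting is not stated in the sources used here, so that reads of an overlapping gene on the other strand cannot be told apart.

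The same genes offered other introns to compare. In 780 genes with a listed 5′ boundary of both kinds, the median rise in WT cells was 4.30 points for the very long introns and 3.93 points for their 8481 other introns of 100 to 50000 bases, and the very long intron rose more in 380 genes and less in 398. At the 3′ boundary the medians were 1.40 and 2.72 points over 758 genes, and the very long intron rose more in 233 and less in 515. The medians were close at the 5′ end, and the very long introns had the lower median at the 3′ end. These comparisons were not tested.

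Genes with several very long introns showed how far the introns of 1 transcript can differ. SYT1, which encodes a calcium sensor of vesicle fusion, had 6 such introns, with mean 5′ retention in WT E7107 of 12.9%, 46.9%, 3.75%, 19.3%, 0% and 23.4% from its intron 1 through 2, 3, 4 and 8 to 9. In PTPRK, a receptor tyrosine phosphatase, intron 1 stood at 38.4%, intron 7 at 32.2% and intron 3 at 26.1%, while intron 2 stood at 1.42% and intron 13 at 0%. In ADK, the adenosine kinase, all 5 introns stood at 2.84% or less. CDKAL1, EXOC4, FHIT, LPP and RABGAP1L also held 6 each.

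Y36C cells showed a small change of retention in the very long introns under E7107. The 5′ mean over all 1169 introns was 1.50% ± 0.0714 (SD, n = 6) with DMSO and 1.91% ± 0.132 with E7107, and the 3′ mean was 1.13% ± 0.0854 and 1.35% ± 0.0771. At the 5′ boundary the samples lay between 1.42% and 1.58% with DMSO and between 1.74% and 2.08% with E7107 and did not overlap, and at the 3′ boundary they overlapped. The median change over the listed boundaries was 0 points at both ends. By limma, 7 of 66 tested 5′ boundaries and 6 of 79 tested 3′ boundaries rose, and 4 and 1 fell, while 26.8% of all tested boundaries in the files rose and 1.26% fell. Without the filter 5 of 891 and 5 of 855 rose, which is 0.561% and 0.585%, against 8.76% of all boundaries. In shorter introns the 5′ share without the filter was 14.2%, 6.13% and 1.86% in order of length. No very long intron rose at both ends. Retention reached 10% at 58 of the 5′ boundaries in Y36C E7107 and at 32 in Y36C DMSO, and in Y36C E7107 it reached 50% at none.

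In DMSO no single boundary differed between the genotypes by the test. The mean 5′ retention was 1.83% ± 0.118 in WT and 1.50% ± 0.0714 in Y36C, with no overlap of the samples, and the 3′ means were 1.32% ± 0.0841 and 1.13% ± 0.0854, with overlap. None of 147 tested boundaries was called by limma, 25 having an unadjusted p under 0.05 and the smallest adjusted p being 0.0583. Without the filter none of 1820 was called, with 112 at an unadjusted p under 0.05, and the share called with the filter over all boundaries in the files was 0.0877% higher and 0.0778% lower in Y36C. Under E7107, 216 of 254 tested 5′ boundaries and 103 of 151 tested 3′ boundaries were lower in Y36C than in WT, and 2 and 8 were higher, against 62.9% lower and 11.7% higher over all boundaries. Without the filter 475 of 1968 were lower, against 40.0% of all.

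The interaction of genotype and treatment over all 24 samples compared the treatment changes with their sign. The change was lower in Y36C at 196 of 263 tested 5′ boundaries and 95 of 173 tested 3′ boundaries, and higher at 1 and 8. A higher change can be a smaller fall. Over all boundaries 54.9% had a lower and 8.94% a higher change in Y36C. Without the filter 389 of 2155 boundaries of very long introns had a lower change, against 34.0%. The most negative interactions were at 5′ boundaries, with -6.35 in natural-log odds in ZFHX4, -6.27 in CDK6, -6.08 in IQCJ-SCHIP1 and -5.98 in APBB2. The mean 5′ retention of ZFHX4, a zinc finger homeobox factor, was 0% in WT DMSO and 77.0% in WT E7107, and an annotated exon of the same strand lies across that boundary. The most positive were at 3′ boundaries, with 2.62 in CDC14B, a phosphatase, and 2.31 in CDIN1. The interaction in CDC14B was called with and without the filter (adjusted p = 0.0141 and 0.0312), and that in CDIN1 with the filter alone (0.0392, and 0.0817 without it). In CDC14B the 3′ retention was between 0% and 18.8% (median 0%) in Y36C DMSO and between 6.67% and 33.3% (median 19.4%) in Y36C E7107, groups that overlapped, while in WT the means were 2.64% and 2.08%. An annotated exon of the same strand lies across that 3′ boundary.

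Some 3′ boundaries lost retention in WT cells. In intron 1 of BACE2, an aspartyl protease, the 3′ retention was between 5.26% and 22.9% (median 10.7%) in WT DMSO and between 0% and 2.94% (median 0%) in WT E7107, so that the groups did not overlap (-2.14 ± 0.332 in natural-log odds, limma, adjusted p = 0.000107). Its 5′ boundary moved the other way, from a mean of 1.25% to 5.48% (adjusted p = 0.0253, and 0.0481 without the filter). TTLL5, a tubulin glutamylase, fell from 12.2% ± 4.75 to 2.21% ± 3.49, the TSPAN9 intron at chr12:3310423-3387586 from 10.05% ± 6.61 to 1.67% ± 4.08, and FAM53B from 8.78% to 2.08%, with adjusted p of 0.00218, 0.00383 and 0.00325. SLC20A2, a phosphate transporter, and RAPGEF1, an exchange factor of Rap1, were called with the filter only (adjusted p = 0.0449 and 0.0369, and 0.0854 and 0.0700 without it). The WT DMSO and WT E7107 samples overlapped at each of these 3′ boundaries other than that of BACE2. An annotated exon of the other strand lies across the 3′ boundary of FAM53B, and its part in the values was not tested. The 3′ boundaries that fell had all passed the filter only through the DMSO group, where they are high. This does not describe the rise at the 5′ boundary of BACE2.

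Of the 5 falls in Y36C cells, 2 also passed the test without the filter, those in PARVB and NXN. In intron 1 of PARVB, an actin-binding protein of focal adhesions, the 5′ retention was between 3.33% and 11.1% (median 8.82%) in Y36C DMSO and between 0% and 3.03% (median 1.22%) in Y36C E7107, and the groups did not overlap (-1.55 ± 0.326 in natural-log odds, limma, adjusted p = 0.00456, and 0.0104 without the filter). In NXN, a thioredoxin-like protein, named here after its values were seen, the 5′ retention was between 0.976% and 2.31% (mean 1.53%) in Y36C DMSO and between 0% and 0.543% (mean 0.244%) in Y36C E7107 (adjusted p = 0.00282, and 0.00374 without the filter), in an intron at chr17:729319-882558. The calls in MTHFD2L, in GULP1 and at the 3′ boundary of the same TSPAN9 intron had adjusted p of 0.0485, 0.0392 and 0.0338 with the filter and 0.103, 0.0725 and 0.0748 without it. In each of these the Y36C groups overlapped.

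The splice sites of very long introns are also joined to other sites, and these junctions changed in both genotypes. A junction that ends inside the intron uses an exon or site within it, and a junction that ends beyond the intron joins a site past its other end. Whether annotated exons lie between was not checked. The files list 8228 such junction ends at the sites of the 1169 introns. Summed per site and averaged over the introns, usage beyond the intron at the 5′ splice site was 1.11% ± 0.125 (SD, n = 6) with DMSO and 2.37% ± 0.0900 with E7107 in WT cells, and 1.19% ± 0.0446 and 3.11% ± 0.136 in Y36C cells. At the 3′ splice site it was 1.04% ± 0.0752 and 1.44% ± 0.171 in WT cells, and 1.14% ± 0.0525 and 2.81% ± 0.0756 in Y36C cells. Usage inside the intron at the 5′ splice site was 4.02% ± 0.0976 and 3.54% ± 0.278 in WT cells, and 3.55% ± 0.102 and 2.41% ± 0.157 in Y36C cells, so that it was lowest in Y36C E7107, as it was at the 3′ splice site with 2.94% ± 0.0947. In introns of 10000 to 50000 bases, usage beyond the intron at the 5′ splice site was also higher with E7107. There its mean went from 2.16% to 3.58% in WT cells and from 2.21% to 4.26% in Y36C cells. Usage inside the intron at that site went from 2.57% to 2.26% in WT cells and from 2.41% to 1.98% in Y36C cells. In introns of 1000 to 10000 bases usage beyond went from 1.32% to 2.00% and from 1.32% to 2.40%. Usage inside went from 0.824% to 0.669% in WT cells and from 0.803% to 0.845% in Y36C cells.

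**Figure D5:**
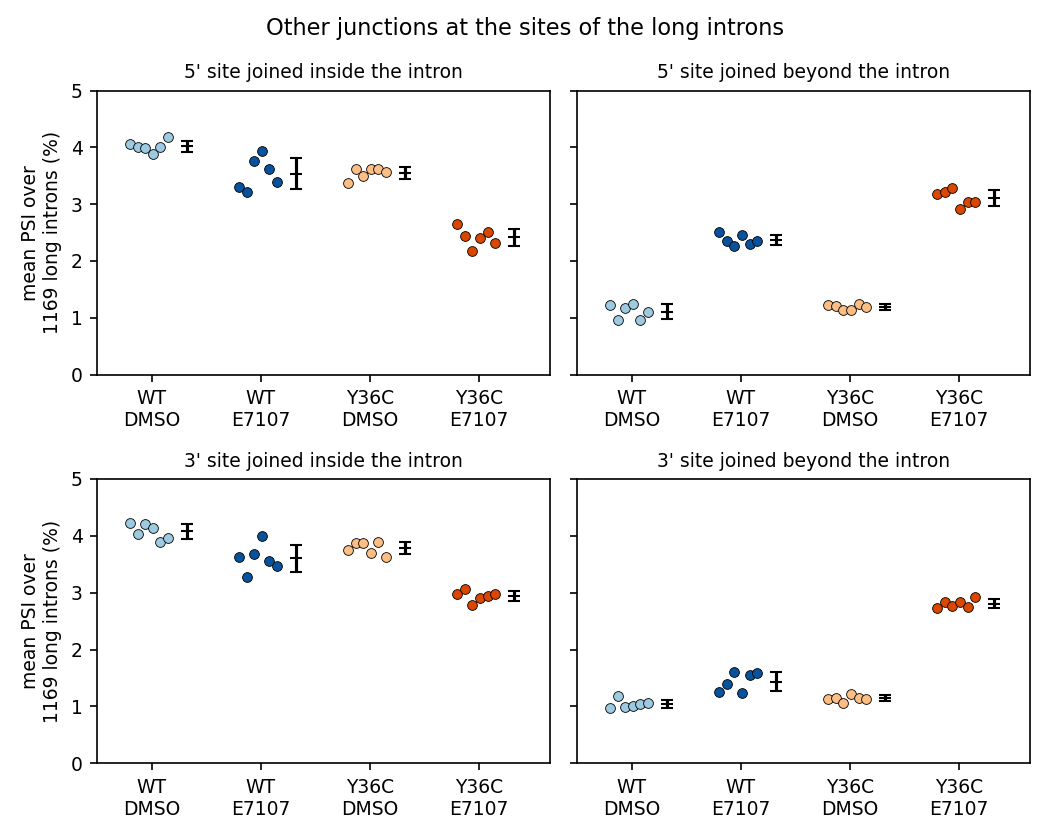
Mean usage in percent of other junctions at the sites of the 1169 very long introns in each of the 24 samples, for junctions ending inside the intron and beyond it, at the 5′ and the 3′ splice site. Usage beyond the intron at the 5′ splice site averages 1.19% with DMSO and 3.11% with E7107 in Y36C cells, and usage inside the intron there averages 3.55% and 2.41%.

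By limma, 164 of 629 tested junction ends rose and 88 fell in Y36C cells, and 77 of 555 rose and 122 fell in WT cells. Over all spliced rows in the files 7.08% rose and 14.9% fell in Y36C cells, and 7.35% rose and 39.8% fell in WT cells. All spliced rows include the main junction at each site, which the junction ends counted here leave out, so the shares are not like for like. Of the ends beyond the intron in Y36C cells, 81 rose and 1 fell at the 5′ splice site, in 78 introns, and 77 rose and 1 fell at the 3′ splice site, in 73 introns. In WT cells 39 rose and 10 fell, and 16 rose and 7 fell. Of the ends inside the intron in Y36C cells 2 rose and 46 fell at the 5′ splice site and 4 rose and 40 fell at the 3′ splice site, and in WT cells 14 rose and 49 fell, and 8 rose and 56 fell. The filter passes a junction through the group where it is high, so the counts are descriptions. The same counts were not made for shorter introns. Without it 169 rose and 72 fell in Y36C cells, and 110 rose and 208 fell in WT cells. By the interaction, the treatment change with its sign was higher in Y36C at 187 and lower at 74 of 768 tested junction ends. Of all spliced rows 32.6% were higher and 9.06% lower. A higher change can be a smaller fall.

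The farther splice sites that gained usage are shown here for 4 introns beside the introns' own sites. The first 2 are among the largest gains in WT cells and the last 2 among the largest in Y36C cells, and the AG is in capitals.
DYRK1A, own 3′ splice site, at the end of chr21:38739931-38792600, plus strand: atctgtttttcttcacacAGtgt
DYRK1A, farther 3′ splice site, at the end of chr21:38739931-38844985: cctcacttatcttcttgtAGgag
TSPAN5, own 3′ splice site, at the end of chr4:99428880-99579296, minus strand: ctgctttctttctttttcAGttt
TSPAN5, farther 3′ splice site, at the end of chr4:99397612-99579296: ctctttcctttcttcaccAGgaa
SMURF2, own 3′ splice site, at the end of chr17:62602759-62657946, minus strand: tttgttttttttttttacAGtac
SMURF2, farther 3′ splice site, at the end of chr17:62594609-62657946: tagaaaatcttttttcacAGgac
ZFAND3, own 3′ splice site, at the end of chr6:37787793-37897734, plus strand: tttctttttgtttgccccAGgtc
ZFAND3, farther 3′ splice site, at the end of chr6:37787793-38029368: cgttttctatttttcttcAGatt

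In WT cells the largest gains beyond the intron took most of the usage at a site. In TSPAN5, a tetraspanin, the junction to the site 31268 bases past the intron was at 0% in all WT DMSO samples and between 49.6% and 60.9% (median 60.1%) in WT E7107, and its mean in Y36C E7107 was 1.30% (limma in WT cells, adjusted p = 6.30e-11, and 3.79e-11 without the filter). All usage beyond the intron at this 5′ splice site went from a mean of 3.199% to 70.4% in WT cells and from 2.95% to 27.8% in Y36C cells. In DYRK1A, a protein kinase, the junction to a site 52385 bases past the intron was between 0% and 10% (median 5.68%) in WT DMSO, between 58.6% and 68.4% (median 64.9%) in WT E7107, and between 21.4% and 34.8% (median 27.6%) in Y36C E7107. The DYRK1A junction thus rose in both genotypes, and the Y36C E7107 samples lay below all WT E7107 samples. PCDH7, a protocadherin, gained a junction of 320023 bases that was at 0% in WT DMSO and at 62.5% ± 12.6 in WT E7107, with 5.77% ± 4.64 in Y36C E7107. In FRS2, an adaptor of fibroblast growth factor receptors, and in CREB3L2, a transcription factor, the junctions reached 51.5% ± 3.69 and 59.6% ± 5.57 from 2.37% and 1.59%.

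In Y36C cells the largest gains of single junctions beyond the intron were as follows. In SMURF2, a ubiquitin ligase of TGF-β signalling, the junction to the site 8150 bases past the intron was between 18% and 30.5% (median 22.2%) in Y36C DMSO and between 57.0% and 72.0% (median 63.0%) in Y36C E7107, and its mean in WT cells went from 13.3% to 33.7% (limma in Y36C cells, adjusted p = 2.21e-05, and 3.36e-05 without the filter). All usage beyond the intron at the 5′ splice site of SMURF2 went from 13.3% to 67.9% in WT cells and from 22.98% to 64.8% in Y36C cells, a sum that was not tested and that was higher with E7107 in both genotypes. In ZFAND3 the junction of 241576 bases was between 0% and 9.62% (median 0%) in Y36C DMSO and between 25.4% and 42.0% (median 33.6%) in Y36C E7107. WDR7 gained a junction from a farther 5′ splice site, at 1.59% ± 3.89 in Y36C DMSO and 36.6% ± 14.98 in Y36C E7107, which was at 0% in all 12 WT samples. PINX1, which encodes an inhibitor of telomerase, had a junction from a farther 5′ splice site at 24.8% ± 3.74 and 55.0% ± 10.2 in Y36C cells, while in WT cells its mean was 27.9% in DMSO and 7.03% under E7107. In ATXN7L1 and in the TSPAN9 intron at chr12:3192886-3310342 the junctions from a farther 5′ splice site went from 18.4% to 66.9% and from 12.1% to 46.8% in Y36C cells, and stood at 3.94% and 25.4% in WT E7107.

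Gains inside the intron were fewer. In WT cells the 5′ splice site of the ASXL1 intron, in a gene of Polycomb regulation, was joined to a site within the intron at between 6.58% and 16.0% (median 13.6%) in DMSO and between 34.6% and 77.8% (median 51.3%) under E7107, and the Y36C means were 13.5% and 5.67%. HMGA2, a chromatin protein that binds AT-rich DNA, had a junction to a site inside the intron at 2.11% ± 0.601 in WT DMSO and 23.2% ± 10.8 in WT E7107, with 2.08% and 0.971% in Y36C cells. In Y36C cells the 3′ splice site of RREB1, a zinc finger transcription factor, was joined to a site within the intron at between 16.7% and 33.3% (median 20.1%) in DMSO and between 21.7% and 50% (median 35.7%) under E7107, groups that overlapped, and its means in WT cells were 18.2% and 39.2%. It was called with the filter alone (adjusted p = 0.0358, and 0.0691 without it). ADIPOR2, a receptor of adiponectin, and NSRP1, a regulator of splicing, had such junctions at 5.41% and 15.8%, and at 1.59% and 11.2%, the first called with the filter alone (adjusted p = 0.0314, and 0.0689 without it).

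Gene groups were described by their listed boundaries, of which between 2 and 15 in each list passed the filter in WT cells. Over all very long introns 320 of 2155 listed boundaries (404 tested) rose in WT cells, and 468 did without the filter. Of 42 listed boundaries in genes of common fragile sites, 2 rose in WT cells (4 without the filter), with a median change of 0.561 points, against 1.99 points over all 2155 boundaries. For genes of adhesion and cell polarity it was 6 of 60 (7 without the filter) and 1.29 points, and for Wnt pathway genes 2 of 18 (3 without) and 2.52 points. For chromatin and transcription factors it was 7 of 42 (10 without) and 2.94 points, for RNA binding and processing genes 10 of 34 (11 without) and 3.13 points, and for kinases and regulators of small GTPases 13 of 70 (17 without) and 3.17 points. For ubiquitin ligase and proteolysis genes it was 6 of 27 (7 without) and 4.71 points. No boundary fell with the filter in any list, and without it 2 did, both in the kinase list. In Y36C cells no boundary of any list was called in either direction. Over all very long introns only 13 of 2155 listed boundaries (145 tested) rose in Y36C cells and 5 fell. Between 1 and 4 boundaries of each list passed the filter there, so that the absence of calls says nothing about the lists.

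The introns taken as examples from the lists, which are among the longest of each, differed within a list. The 5′ boundary of the 149085-base intron of ARID1B, a subunit of the BAF chromatin remodeller, rose from a mean of 0.327% to 54.3% in WT cells, and it stood at 2.53% and 4.15% in Y36C cells, with an annotated exon of the same strand across it. In SMYD3, a methyltransferase with a 397263-base intron, the mean 5′ change in WT cells was 4.51 points. TCF7L2, the transcription factor of Wnt signalling in the gut, rose at both ends of a 101057-base intron in WT cells, from 1.18% to 25.98% at the 5′ and from 0.815% to 34.3% at the 3′ boundary, and stood at 0.983% and 0.332% in Y36C E7107. GSK3B, the kinase that marks β-catenin for destruction, changed by 13.0 points at the 5′ and 3.92 points at the 3′ boundary in WT cells, and TCF7L1 by 0.604 and 6.67 points. Among the RNA-binding genes, the longest intron of IGF2BP2, an mRNA-binding protein, changed by 11.9 and 17.1 points and that of RBFOX2, a regulator of splicing, by 0.722 and 0.893 points.

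At the limits of the choice, the shortest introns taken were in RABGAP1L with 50056 bases, PALS2 with 50072 and XPR1 with 50089, with mean 5′ retention in WT E7107 of 2.78%, 7.69% and 1.75%. The longest left out were in SEMA3A with 49911 bases, BCAR3 with 49909 and STK4 with 49887, at 16.98%, 43.6% and 6.09%. The lowest usage taken was 50.2% in KIAA1328, LINC01278 and DENND5B, and the highest left out was 49.6% in TCF7L2, in an intron other than the one above, 49.5% in TBC1D5 and 49.4% in OR51B5.

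Over the series, no read numbers are in the files, and the 1 trace of depth is how many of the 636130 listed splice sites had any reads. The median of that number was 337968.5 with DMSO and 282785.5 with E7107 in WT cells, and 336782 and 330507 in Y36C cells. The introns with reads in all 24 samples are therefore those of genes still read in WT E7107. Between 43.2% and 47.1% of the PSI values of the very long junctions were exactly 100 in each group. Sites of the epithelial genes EPCAM, CDH1, KRT8 and KRT18 had reads in all 24 samples, while PTPRC, CD3E, COL1A2, CDH5, GFAP and RBFOX3, markers of other cell types, had no listed site and COL1A1 had 85 sites with reads in all 24. The intestinal markers VIL1 and CDH17 had at most 1 site with reads in any sample and CDX1 had none, while CDX2 had 2 to 6 sites with reads in a sample and KRT20 had 6 to 15. No library stood apart from its group in the sample means of retention or of other usage.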

How the data were processed

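PolyA RNA of 24 HCT116 samples was made into libraries by Illumina protocols. The submitters' processing notes name STAR and hg19, with no version. The authors deposited percentages: the PSI, in percent, of each junction or exon-intron boundary among all usage at a splice site. The files give no counts, so depth is unknown and the counting error of a single value cannot be given. Each file has 1830076 rows, of which 6433 without a strand or on other chromosomes were left out. At every site the PSI summed to 100 or to 0 within 0.01 points, a sum of 0 was taken as missing, and no pair of samples held identical values.

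An intron of length end minus start was chosen as described, and retention was read from the rows of 2 bases at its ends. Gene names and exons came from GENCODE v44 lifted to GRCh37, and sequence from GRCh37. limma 3.58.1 in R 4.3.3 was run on PSI as natural-log odds, after an offset of 1 point was added to PSI and to its complement. A row entered when its site had reads in all samples compared and when all 6 samples of some group had a value above 0. P-values were two-sided, with Benjamini-Hochberg adjustment over all rows, 352424 in WT cells, 372780 in Y36C cells, 361441 in DMSO, 362001 under E7107 and 378553 for the interaction. The call limit was an adjusted p of 0.05. The pairwise comparisons used 12 samples each and the interaction 24. The scripts were tested on simulated data. Python 3.11.15 with pandas 2.3.3, numpy 2.4.6, scipy 1.17.1 and pysam 0.24.0 was used.

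The introns, gene lists, offset, filter and tests were chosen with earlier results of these data known. The named introns are 1 per gene: the 8 with the largest rise in WT cells among those called at both ends (none qualified in Y36C cells), the largest falls, the 6 with the smallest change, the 6 with the largest gain of other junctions inside and beyond the intron in each genotype, the 4 longest, the 4 largest interactions of each sign, the 4 largest differences of the ends, and those at the limits. In DMSO no boundary was called, so none was named. GSK3B, SYT1, PTPRK and ADK, and the examples of the lists, were named after their values were seen. The fit of the difference of the ends, the comparison with other introns of the same genes, and the printing of counts without the filter beside the main counts were added after the data were seen. NXN was named after its values were seen. The alternatives were other offsets, PSI in percent, no filter, a replicate block, a shared estimate of the spread, a minimum change and other limits on length and usage.

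The labels number replicates 1 to 6 in each group. Same-numbered samples did not deviate together, with correlations of their deviations from the group means between -0.007 and 0.007.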

Additional observations from a re-analysis of the deposited data

Results flagged for a closer look

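Dixon's test was applied to the sample means over all very long introns and to the named introns, and 135 group values with a median of 0 were not checked. Single samples stood apart from the other 5 of their group at 11 of the 237 group values checked, where chance gives about 1 in 20. All 11 were in named introns. For retention these were the lowest WT E7107 sample of SLC20A2 at the 5′ boundary (7.14%), the highest Y36C DMSO sample of MTHFD2L at the 3′ boundary (40%), the highest WT E7107 samples of PARVB (17.02%) and IMMP2L (31.6%) at the 5′ boundary, and the lowest Y36C DMSO sample of EGFR at the 5′ boundary (3.90%). For other junctions these were RREB1 in WT E7107 (lowest sample, 0%) and Y36C DMSO (highest, 33.3%), ADIPOR2 in WT DMSO (highest, 13.3%), UBAC2 in Y36C E7107 (highest, 4.00%), TSPAN5 in WT E7107 (lowest, 49.6%) and PINX1 in WT DMSO (lowest, 21.98%).

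The treatment change differed between the genotypes by limma's interaction term. Taken with its sign, it was lower in Y36C cells at 291 boundaries of very long introns and higher at 9. For other junctions at their sites it was higher at 187 and lower at 74. A higher change can be a smaller fall. The interactions, in natural-log odds, were 2.62 in CDC14B, 2.31 in CDIN1, 2.31 in TTLL5 and 1.96 in SLC20A2 at the 3′ boundary, and -6.35 in ZFHX4, -6.27 in CDK6, -6.08 in IQCJ-SCHIP1 and -5.98 in APBB2 at the 5′ boundary. In CDIN1 the 3′ mean was 7.87% with DMSO and 13.1% with E7107 in WT cells, and 1.37% and 11.3% in Y36C cells. Without the filter the interactions in CDIN1 and SLC20A2 were not called (adjusted p = 0.0817 and 0.0621, against 0.0392 and 0.0296 with it, by limma), while the other 6 were.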

How the results depend on the processing

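For the counts of rises or falls and the median changes, 83 values were recomputed under alternatives. Of these, 68 stayed within 1.5 times the count or within 1 SD, and 15 moved. A count, or a median change of 0, could not be marked as reversed by construction. None of the other median changes reversed. With introns of 100000 bases or more alone, the boundaries that rose in WT cells numbered 78 (320 in all). Those lower in Y36C under E7107 numbered 78 (319) and those with a lower signed change in Y36C 75 (291), since fewer introns entered. The 13 boundaries that rose in Y36C cells became 8 with PSI in percent, 8 with the spread estimated over all 24 samples, 3 with a minimum change of 10 points and 2 at 100000 bases or more. The 199 other junctions called in WT cells became 318 without the filter and 90 with a minimum change of 10 points, and the 252 in Y36C cells became 110 with that minimum. The mean in place of the median over boundaries gave a change of 7.02 points in place of 1.99 in WT cells, 0.335 in place of 0 in Y36C cells, -0.277 in place of -0.0338 between the genotypes in DMSO and -6.96 in place of -1.98 under E7107, and a usage limit of 80% gave -1.85 there. Apart from the construction of each alternative, the cause was not tested.

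The replicate numbers did not pair the samples. With a replicate block, 316 boundaries rose in WT cells, 11 in Y36C cells and 0 differed in DMSO. With that block 310 were lower in Y36C under E7107 and 289 had a lower signed change in Y36C, and 187 and 217 other junctions were called in WT and Y36C cells. Depth is unknown, so that a retention of 0 has no upper limit here.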
